A study of Mus musculus with 6 samples.

Results

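The 8 genes described here encode regulators of G protein signalling (RGS proteins): Rgs1, Rgs2, Rgs3, Rgs10, Rgs14, Rgs16, Rgs18 and Rgs19. They were named as a list and matched by gene symbol in a table of 55291 genes, and all 8 were found. The table covers natural killer (NK) cells and type 1 innate lymphoid cells (ILC1s), sorted from tumours of wild-type C57/BL6 mice that had received MC38 colon carcinoma cells under the skin 14 days earlier. Both groups came from the same tumour model, with no engineered allele or drug named for either, and each had 3 libraries. NK cells circulate, whereas ILC1s mostly stay in tissue. The sources used here give neither the surface markers of the sort, nor the age of the mice, nor the number of mice behind a library. The p-values therefore measure the spread between these samples, which may be technical.

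RGS proteins bind the GTP-loaded alpha subunit of a heterotrimeric G protein and speed up GTP hydrolysis, which ends the signal of the receptor. Chemokine receptors and several receptors for sphingosine 1-phosphate signal through Gi proteins, so RGS proteins can shorten the response of a lymphocyte to cues that attract it or lead it out of a tissue. RGS1 in particular is known to blunt responses to chemokines such as the CXCR4 ligand CXCL12, and its mRNA is abundant in tissue-resident T cells.

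Library totals lay between 16931099 and 20224847 counts. All 10 markers of group 1 innate lymphoid cells on the list used were detected in every library. The libraries did not sort by cell type alone. The summed level of 12 fibroblast and mural cell markers was 724 CPM (counts per 1000000, with library totals scaled by TMM) in NK replicate 3, 862 and 1259 CPM in ILC1 replicates 1 and 2, and 30.8 to 65.8 CPM in the other 3 libraries. The summed level of 14 macrophage and monocyte markers was 14539 CPM in ILC1 replicate 3 and 172 to 411 CPM in the others. NK replicate 3 resembled ILC1 replicates 1 and 2 (Pearson r = 0.977 and 0.971 of log2 CPM, computed over genes that are no independent replicates) more than NK replicates 1 and 2 (r = 0.880 with each). These 3 libraries are called the matrix-rich libraries below, a grouping made from earlier results of these data. In sorted bulk RNA, fewer cells of a type and less RNA per cell cannot be told apart.

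On GRCm38, 4 of the 8 genes lie on chromosome 1. Rgs2 (143999338 to 144004161), Rgs1 (144242296 to 144249242) and Rgs18 (144752683 to 144775435) sit on the reverse strand in a run of 5 RGS genes that spans 776 kb, together with Rgs13 and Rgs21 and with no other protein-coding gene between them. Rgs16 (153740349 to 153745468, forward strand) lies 40.03 kb downstream of Rgs8 on the same chromosome. Rgs3 is on chromosome 4 (62559847 to 62704001), Rgs10 on chromosome 7 (128373621 to 128418758), Rgs14 on chromosome 13 (55369732 to 55384687) and Rgs19 on chromosome 2 (181688419 to 181693977). All 8 are annotated as protein-coding, and a count refers to the whole gene. Antisense or overlapping gene models exist for Rgs3, Rgs10 and Rgs16. They held at most 20 counts in any library.

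Promoter windows from RefSeq (GRCm38.p6) matched 5 of the 8 genes: Rgs2, Rgs3, Rgs10, Rgs16 and Rgs19. Those of Rgs2 and Rgs16 are shown because, of the 5 genes, only these had a positive fold change (ILC1 over NK, below) that kept its sign in all 15 alternatives run. Each runs 5′ to 3′ on the strand of its gene, from 250 to 13 bases before the RefSeq start site. The windows are chr1:144004162-144004399 (reverse strand) for Rgs2 and chr1:153740103-153740340 (forward strand) for Rgs16. Both RefSeq start sites lie inside the gene bounds given above, which come from GENCODE, and the Rgs2 window ends directly outside those bounds. Capitals mark matches on either strand to TGACG (the half-site of the cAMP response element), GGGCGG (GC box), CCAAT and TATAAA.
Rgs2: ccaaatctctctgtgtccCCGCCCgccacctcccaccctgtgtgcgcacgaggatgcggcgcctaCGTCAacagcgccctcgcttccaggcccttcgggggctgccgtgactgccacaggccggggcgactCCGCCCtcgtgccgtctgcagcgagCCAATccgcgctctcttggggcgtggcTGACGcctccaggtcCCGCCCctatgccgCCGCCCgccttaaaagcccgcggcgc
Rgs16: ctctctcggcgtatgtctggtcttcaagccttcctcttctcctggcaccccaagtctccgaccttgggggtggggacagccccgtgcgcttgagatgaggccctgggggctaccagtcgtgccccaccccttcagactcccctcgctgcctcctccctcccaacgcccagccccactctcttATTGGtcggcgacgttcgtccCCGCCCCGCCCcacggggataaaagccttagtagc

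The Rgs2 window held 2 TGACG matches, starting 185 and 67 bases before the RefSeq start site, and the Rgs16 window held 0. Over 32851 RefSeq windows of the same length, 16.7% held at least 1 such match. The complete cAMP response element, TGACGTCA, which contains TGACG, was in neither window and in 1.42% of all windows. Both windows held GC boxes, 4 for Rgs2 and 2 for Rgs16, against 31% of all windows with at least 1. Both held 1 CCAAT match, against 32.9%. Neither held TATAAA, which 12% of windows did. GC content was 71.8% for Rgs2 and 65.1% for Rgs16, and the median window had 52.1%. A match describes letters and is no evidence of a bound factor.

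Rgs1 and Rgs2 made up most of the Rgs counts of both cell types, as shares not scaled by gene length. The 3 ILC1 libraries had a higher level of each in CPM than any NK library. Rgs1 alone held 57.2 to 67.6% of the counts of all 21 Rgs genes on the list in the NK libraries and 60.9 to 66.2% in the ILC1 libraries. Rgs2 held 16.6 to 19.6% and 18.7 to 23.7%. The 8 genes together held 98.8 to 99.3% in every library. Their summed level was 2445, 2185 and 2810 CPM in NK replicates 1 to 3 and 3612, 3461 and 3312 CPM in ILC1 replicates 1 to 3. The lowest ILC1 library was above the highest NK library. This follows mostly from Rgs1 and Rgs2, the largest parts of the sum, and adds nothing to them.

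The summed levels of some marker lists of other cells also separated the groups, though not every gene on these lists did. The summed level of 10 T cell markers was 161 to 175 CPM in the NK and 196 to 313 CPM in the ILC1 libraries, and that of 10 dendritic cell markers 71.6 to 114 CPM and 192 to 2216 CPM. The dendritic sum in ILC1s came largely from H2-Ab1 (785.5 ± 1200 CPM, against 31.9 ± 7.25 CPM in NK cells). The summed level of 8 tumour epithelial markers was 16.2 to 33.0 CPM and 106 to 382 CPM, mostly from the cadherin gene Cdh1 (12.2 to 23.3 CPM and 97.5 to 377 CPM). The keratin genes Krt8, Krt18 and Krt19 on that list had log2 fold changes of -1.88, -1.43 and -0.39. Of the tested markers, 8 of 10 T cell, 6 of 8 dendritic and 2 of 5 tumour epithelial genes had a positive fold change. The summed level of the 10 group 1 innate lymphoid cell markers was 6563 to 10337 CPM in the NK and 5277 to 5804 CPM in the ILC1 libraries. Its largest part was Il2rb, whose ranges overlapped (3036 to 4820 CPM and 2672 to 3274 CPM). Of the 10 genes, 1 had a positive log2 fold change, Itga1 with 1.73. The others were negative, from -0.13 (Tbx21) to -3.27 (Itga2). The sum mixes both directions, and the amount of group 1 cells per library was not tested. The part of any of these cells in the levels of Rgs1, Rgs2 and the summed members was not tested.

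None of the 8 genes passed edgeR's quasi-likelihood test for a difference between ILC1s and NK cells at a Benjamini-Hochberg adjusted p under 0.05 over all 14475 genes tested, where 0.0829% of all genes passed (0.076% higher and 0.00691% lower in ILC1s). All 8 genes passed the low-count filter and were tested. At an unadjusted p under 0.05, 5 of the 8 were found (Rgs1, Rgs2, Rgs3, Rgs16 and Rgs18), where 15.8% of all genes were. Of these, 4 were higher in ILC1s, against 6.95% of all genes, and 1 (Rgs3) was lower, against 8.82%. Values of the 2 cell types did not overlap for 3 of the 8 (Rgs1, Rgs2 and Rgs18, all higher in ILC1s), where 25.8% of all genes did not overlap in either direction and 12.5% had every ILC1 library above every NK library. DESeq2 called 2 of the 8 higher in ILC1s (Rgs1 and Rgs2) and 0 lower, where it called 6.98% of all genes, 2.94% higher and 4.03% lower. Limma-voom called 0 of the 8, where it called 0.124% of all genes. A fit that also holds a term for the 3 library sets (NK replicates 1 and 2, the matrix-rich libraries, and ILC1 replicate 3) takes the cell type difference from the matrix-rich libraries alone, and it called 0 of the 8, where it called 0.228% of all genes. Every value given below as within the matrix-rich libraries comes from that fit and sets 1 NK library against 2 ILC1 libraries. The spread of a gene in it comes from NK replicates 1 and 2, which lie outside these libraries, and from ILC1 replicates 1 and 2. In the fit of cell type alone, the median log2 fold change (ILC1 minus NK) was 0.60 over the 8 genes and 0.081 over all genes tested. An exact two-sided permutation test of 3 against 3 libraries has a smallest p of 0.1 and was not run.

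**Figure D1:**
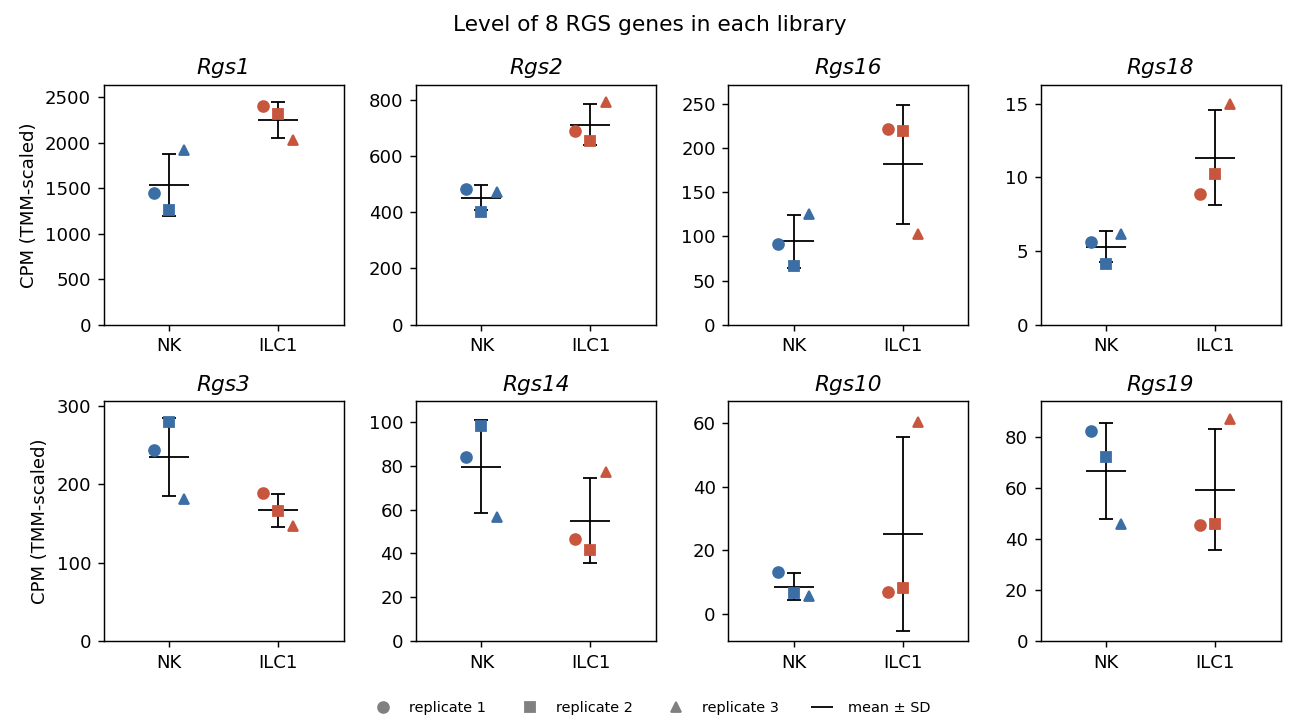
Level in CPM (linear axes, each with its own range) of the 8 RGS genes in each library, with blue points for NK and red points for ILC1, marker shape for the replicate number, and a black bar with whiskers for the mean ± SD of 3 libraries. Points of the 2 cell types are apart for Rgs1, Rgs2 and Rgs18 and interleave for the other 5 genes, and ILC1 replicate 3 stands at 60.4 CPM for Rgs10.

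Rgs1 encodes a small RGS protein of the R4 subfamily that acts on Gi and Gq. Its level was 1443, 1258.5 and 1918 CPM in NK replicates 1 to 3 and 2408, 2316 and 2031 CPM in ILC1 replicates 1 to 3. The groups were apart, and NK replicate 3 was the NK library nearest to the ILC1 values. The ILC1 mean was 2252 ± 196 CPM and the NK mean 1539.6 ± 340.1 CPM (SD, n = 3 each), a ratio of 1.46. The log2 fold change was 0.55 ± 0.20 (SE; edgeR adjusted p = 0.282; DESeq2 adjusted p = 0.0419). Within the matrix-rich libraries it was 0.30 (edgeR adjusted p = 0.698), and without NK replicate 3 it was 0.75 (edgeR adjusted p = 0.0770).

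Rgs2 encodes another small R4 protein, which prefers Gq and also dampens cAMP production. Its level was 483, 400.3 and 471 CPM in the NK libraries and 687, 653 and 792 CPM in the ILC1 libraries. Every ILC1 library was above every NK library, and NK replicate 3 lay with the other NK libraries rather than with the matrix-rich ones. The ILC1 mean was 711 ± 72.1 CPM and the NK mean 451 ± 44.6 CPM, a ratio of 1.57. The log2 fold change of 0.655 ± 0.15 had an edgeR adjusted p of 0.157, ranked 397th of 14475 genes by p, and a DESeq2 adjusted p of 0.00053. Over the 15 alternatives run it stayed between 0.51 and 0.72, with adjusted p-values from 0.00053 (DESeq2) to 0.493.

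Rgs16, an R4 member that acts on Gi and Gq and is induced on lymphocyte activation, differed more between libraries. It was at 91.1, 66.6 and 126 CPM in the NK libraries and at 222, 219 and 103 CPM in the ILC1 libraries. ILC1 replicate 3 was below NK replicate 3, so the groups overlapped. The ILC1 mean was 182 ± 67.9 CPM and the NK mean 94.5 ± 29.8 CPM, with a log2 fold change of 0.94 ± 0.37 (edgeR adjusted p = 0.308). With ILC1 replicate 3, which held the macrophage markers, left out it was 1.21 (edgeR adjusted p = 0.186), and within the matrix-rich libraries 0.81 (edgeR adjusted p = 0.341).

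Rgs18 is an R4 member known from platelets, megakaryocytes and myeloid cells. It was at a low level throughout, with 5.59, 4.11 and 6.15 CPM (112, 80 and 128 counts) in the NK libraries and 8.85, 10.2 and 14.95 CPM (159, 210 and 258 counts) in the ILC1 libraries. The groups were apart, and the highest value was that of ILC1 replicate 3. The mean of 11.3 ± 3.20 CPM in ILC1s was 2.15 times the 5.28 ± 1.06 CPM of NK cells, and the log2 fold change was 1.1 ± 0.33 (edgeR adjusted p = 0.232). Without ILC1 replicate 3 it was 0.84 (edgeR adjusted p = 0.356), and within the matrix-rich libraries 0.63 (edgeR adjusted p = 0.728). The summed level of 10 platelet and megakaryocyte markers was 173 to 222 CPM in the NK and 238 to 273.5 CPM in the ILC1 libraries, mostly from the integrin gene Itgb3 (164 to 267 CPM). Of these markers Gp1bb and Gp9 were at 0 in every library, and the platelet factor gene Pf4 was at 67.1 CPM in ILC1 replicate 3 and at 0 to 2.44 CPM in the others. The part of these cells or of macrophages in the level of Rgs18 was not tested.

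Rgs3, an R4 member with many isoforms that acts on Gi and Gq, had the lower mean in ILC1s. It was at 244, 279 and 181 CPM in the NK libraries and at 188, 166 and 147 CPM in the ILC1 libraries. NK replicate 3 lay among the ILC1 values, so the groups overlapped. The ILC1 mean was 167 ± 20.9 CPM and the NK mean 235 ± 49.3 CPM (log2 fold change -0.49 ± 0.20, edgeR adjusted p = 0.314). Within the matrix-rich libraries the fold change was -0.036, and without NK replicate 3 it was -0.64 (edgeR adjusted p = 0.1001).

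Rgs14, of the R12 subfamily, carries a GoLoco motif that binds inactive Gi alpha in addition to its RGS domain. Its level was 84.0, 98.2 and 56.4 CPM in the NK libraries and 46.4, 41.4 and 77.1 CPM in the ILC1 libraries. All 3 matrix-rich libraries were below the other 3, and the cell types overlapped. The means were 55.0 ± 19.3 CPM (ILC1) and 79.5 ± 21.2 CPM (NK), with a log2 fold change of -0.53 ± 0.31 (edgeR adjusted p = 0.456). Without ILC1 replicate 3 it was -0.86 (edgeR adjusted p = 0.240), without NK replicate 2 -0.35, and within the matrix-rich libraries -0.36.

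Rgs19, also called GAIP, belongs to the RZ subfamily and acts on Gi alpha subunits. It was at 82.4, 72.05 and 45.9 CPM in the NK libraries and at 45.4, 45.9 and 86.8 CPM in the ILC1 libraries. The 3 matrix-rich libraries lay close together and below the other 3, and the cell types overlapped. The means were 59.4 ± 23.8 CPM (ILC1) and 66.8 ± 18.8 CPM (NK) (log2 fold change -0.17 ± 0.34, edgeR adjusted p = 0.818). Within the matrix-rich libraries the fold change was -0.0062, and without ILC1 replicate 3 it was -0.55.

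Rgs10, a small protein of the R12 subfamily that is prominent in myeloid cells, was high in a single library. It was at 13.2, 6.62 and 5.62 CPM in the NK libraries and at 6.85, 8.09 and 60.4 CPM in the ILC1 libraries. The first 2 ILC1 libraries lay within the NK range, and ILC1 replicate 3 had 1043 counts where the others had 117 to 265. The log2 fold change was 1.56 ± 0.96 (edgeR adjusted p = 0.476) and -0.19 without that library (edgeR adjusted p = 0.848). ILC1 replicate 3 was also the library with 14539 CPM of summed macrophage and monocyte markers, with the lysozyme gene Lyz2 at 5838 CPM. All 14 markers were detected in it, as they were in NK replicate 3 and ILC1 replicates 1 and 2, so their level and not their detection set it apart. The part of macrophage RNA in the level of Rgs10 was not tested.

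**Figure D2:**
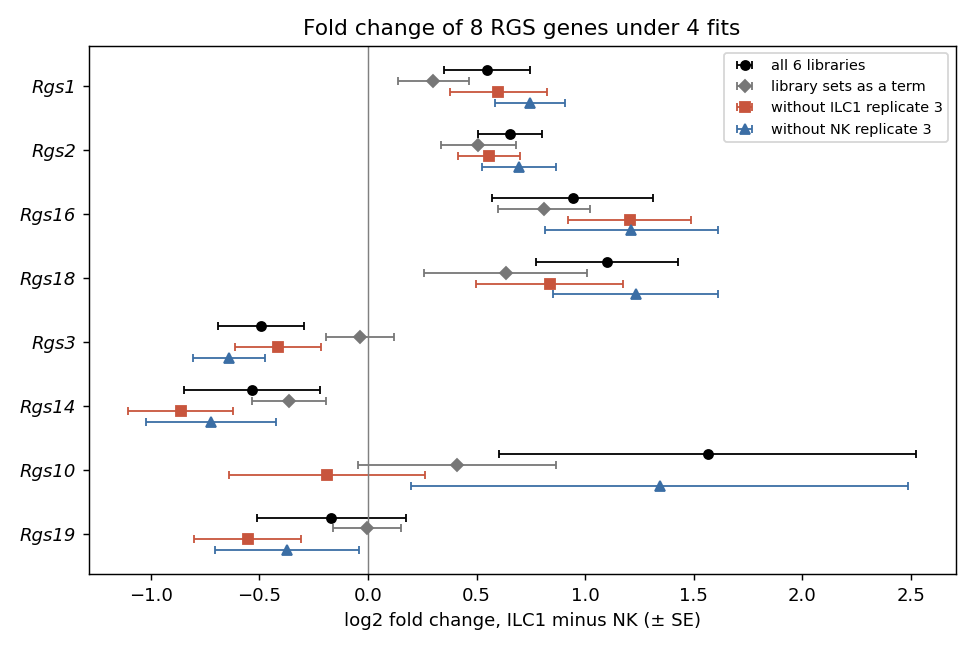
Log2 fold change (ILC1 minus NK, horizontal axis) of each RGS gene with its SE in 4 edgeR fits: all 6 libraries (black circles), with the library sets as a term (grey diamonds), without ILC1 replicate 3 (red squares) and without NK replicate 3 (blue triangles). Rgs1, Rgs2, Rgs16 and Rgs18 are above 0 and Rgs3 and Rgs14 below 0 in all 4 fits, whereas Rgs10 moves from 1.56 to -0.19 without ILC1 replicate 3.

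The plot of centred levels shows how the members varied across libraries. Rgs1, Rgs2 and Rgs18 separated the cell types. Rgs14 and Rgs19 were lower, and Rgs16 higher, in all 3 matrix-rich libraries than in the other 3. That made 3 of the 8 genes, where 33.4% of all genes tested were apart in the same way in either direction. Rgs10 stood out in ILC1 replicate 3, and Rgs3 followed none of these patterns.

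**Figure D3:**
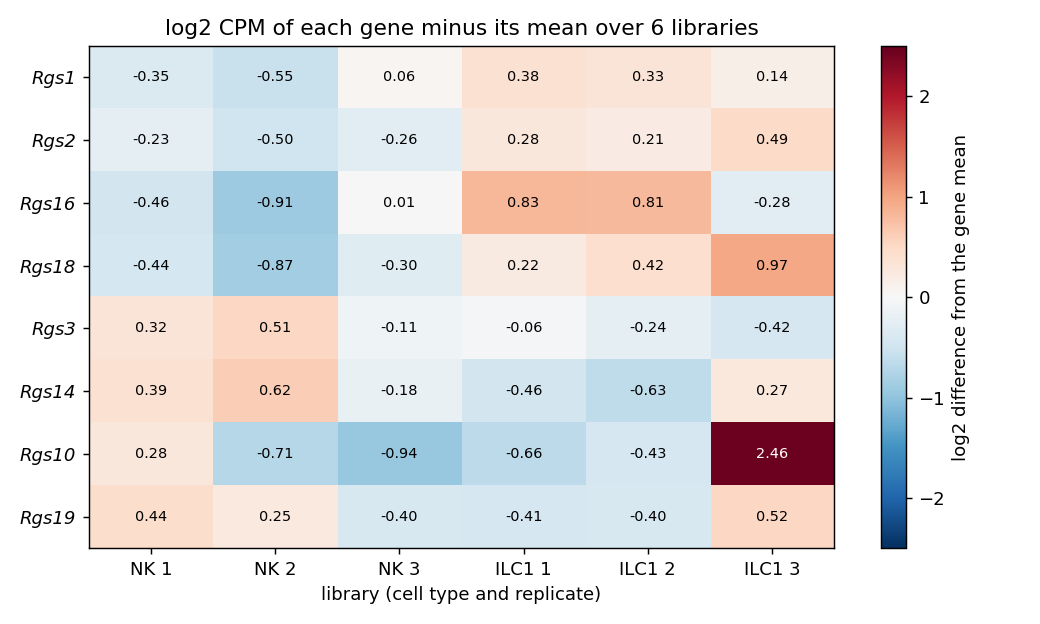
Log2 CPM (prior count of 2) of each RGS gene minus its own mean over the 6 libraries, with libraries in columns, genes in rows, red above and blue below the gene mean, and the value printed in each cell. Rgs2 is negative in the 3 NK columns and positive in the 3 ILC1 columns, and Rgs19 is at -0.40, -0.41 and -0.40 in NK replicate 3 and ILC1 replicates 1 and 2.

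By subfamily, 4 of the 5 R4 members (all but Rgs3) had a positive fold change, as had 1 of the 2 R12 members (Rgs10), and the RZ member had a negative one. Over all genes tested 56% were positive.

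Levels of different genes were compared per kilobase of annotated exon. Rgs1 was highest, at 324 ± 28.3 CPM per kb in ILC1s and 222 ± 48.9 CPM per kb in NK cells (SD, n = 3), and placed 165th and 211th of 14232 genes with a length. Rgs2 followed with 196 ± 19.9 and 124 ± 12.3 CPM per kb, and Rgs16 with 77.7 ± 29.0 and 40.4 ± 12.7 CPM per kb. The ranges of Rgs1, Rgs2 and Rgs16 did not overlap in either cell type. Below them the order was less distinct, and the range of Rgs16 overlapped that of Rgs19 in NK cells. Rgs19 (26.6 ± 10.65 and 29.9 ± 8.43 CPM per kb), Rgs3 (15.4 ± 1.93 and 21.7 ± 4.56) and Rgs14 (12.97 ± 4.57 and 18.8 ± 5.00) had neighbouring ranges that overlapped in at least 1 cell type. Rgs10 (14.7 ± 17.9 and 4.96 ± 2.42) could not be placed in ILC1s because of replicate 3, and Rgs18 had the lowest mean of the 8 at 5.59 ± 1.58 and 2.60 ± 0.52 CPM per kb. The annotated exons of Rgs1 jointly cover its whole gene body, so its level per length is understated. Over the longest annotated transcript it was 385 ± 33.6 CPM per kb in ILC1s and 264 ± 58.2 CPM per kb in NK cells. On that scale Rgs3, at 35.5 ± 4.44 and 49.9 ± 10.5 CPM per kb, had a range that overlapped that of Rgs19, at 39.3 ± 15.7 and 44.2 ± 12.45 CPM per kb.

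**Figure D4:**
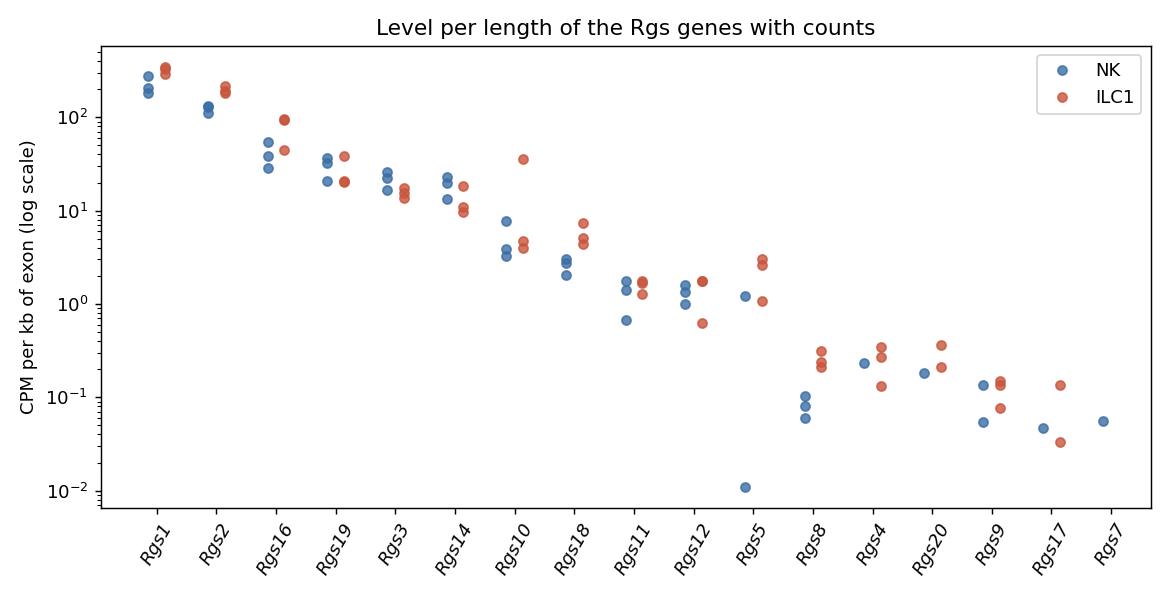
Level per length, in CPM per kb of annotated exon on a log axis, of each Rgs gene with at least 1 count, ordered by the mean over 6 libraries, with a blue point for each NK library and a red point for each ILC1 library. Libraries at 0 are not drawn, and Rgs1 and Rgs2 are above 100 CPM per kb in every library.

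The other 13 Rgs genes added little mRNA. Rgs6, Rgs13, Rgs21 and Rgs22 had 0 counts in all 6 libraries, which allows up to 0.144 to 0.174 CPM per library (3 counts, for counting error only). Rgs13 and Rgs21 are thus the undetected genes of the run on chromosome 1. Its other 3 genes, Rgs1, Rgs2 and Rgs18, had every ILC1 library above every NK library, as had 12.5% of all genes tested and, outside the run, Rgs8. Of the 13, 7 were tested and 0 passed by edgeR (1 at an unadjusted p under 0.05, and 0 by DESeq2, which gave no adjusted p for 3, or by limma-voom).

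Rgs8, an R4 gene best known from neurons and the neighbour of Rgs16, was at 0.999, 0.770 and 0.577 CPM in the NK libraries and at 2.06, 2.29 and 3.01 CPM in the ILC1 libraries. The groups were apart at 12 to 52 counts per library (log2 fold change 1.64 ± 0.49, edgeR adjusted p = 0.233). Rgs5, an R4 gene typical of pericytes, was at 0.0499, 0 and 5.48 CPM in the NK libraries and at 11.9, 13.9 and 4.93 CPM in the ILC1 libraries. The 2 libraries with the highest Rgs5 also had the highest sums of fibroblast and mural markers, and Rgs5 was at or under 1 count in the 2 libraries with the lowest sums. NK replicate 3 and ILC1 replicate 3 had similar Rgs5 levels, with sums of 724 and 65.8 CPM. The largest part of both sums was the collagen gene Col3a1, at 403 and 20.8 CPM. Genes on the list differed in direction between these 2 libraries, with Pdgfrb at 27.0 and 2.43 CPM and Acta2 at 4.85 and 10.7 CPM. The part of mural cell RNA in Rgs5 was not tested. Rgs12 had 11.8 ± 5.59 CPM (ILC1) and 11.03 ± 2.52 CPM (NK), and Rgs11 6.63 ± 1.07 and 5.39 ± 2.35 CPM. Rgs4, Rgs17 and Rgs20 reached at most 1.07, 1.12 and 1.56 CPM, and Rgs7 and Rgs9 stayed under 1 CPM.

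The alpha subunits that RGS proteins act on were expressed in both cell types. Of 13 G alpha genes 10 were tested and 0 passed by edgeR (2 higher in ILC1s at an unadjusted p under 0.05, and 0 by DESeq2 or limma-voom), with a median log2 fold change of 0.22. Gnaq, the alpha subunit of Gq, had 36.9 ± 8.03 CPM (ILC1) and 19.3 ± 7.59 CPM (NK) (log2 fold change 0.94 ± 0.32, edgeR adjusted p = 0.274), and within the matrix-rich libraries its fold change was 0.21. Gna15, another Gq family subunit of blood cells, had 50.1 ± 16.3 and 29.6 ± 8.75 CPM (edgeR adjusted p = 0.314), and Gnal 1.48 ± 0.245 and 3.67 ± 2.48 CPM (log2 fold change -1.31, and -0.64 within the matrix-rich libraries). Gnai2 and Gnai3, the Gi subunits of lymphocytes, fell outside the naming rule and were named after their values were seen. Gnai2 was at 917, 944 and 514 CPM in the NK libraries and at 621, 558 and 1255 CPM in the ILC1 libraries. It was lower in the 3 matrix-rich libraries than in the other 3, and the cell types overlapped (log2 fold change 0.035 ± 0.40, edgeR adjusted p = 0.971). Gnai3 had 224 ± 4.54 and 245 ± 7.07 CPM.

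Of 15 beta and gamma subunit genes 10 were tested and 0 passed (0 at an unadjusted p under 0.05, and 0 by DESeq2 or limma-voom). The smallest p-values were those of the gamma subunits Gng11 (7.43 ± 3.21 CPM in ILC1 and 2.15 ± 1.69 CPM in NK libraries), Gngt2 (15.3 ± 11.5 and 6.45 ± 1.48 CPM) and Gng12 (26.5 ± 1.07 and 17.9 ± 6.20 CPM). Their log2 fold changes were 1.78, 1.25 and 0.57, and within the matrix-rich libraries 1.15, 0.12 and 0.086.

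Other regulators of G proteins and their receptors had a positive fold change in 3 of the 12 tested genes on a list of 15, with a median of -0.26. By edgeR 0 passed and 3 were lower with an unadjusted p under 0.05, and DESeq2 called 2 lower and limma-voom 0. Gpsm1, which like Rgs14 holds GoLoco motifs, had 17.2 ± 5.68 CPM (ILC1) and 37.4 ± 2.84 CPM (NK) (log2 fold change -1.12 ± 0.28, edgeR adjusted p = 0.185). The receptor kinase genes Grk6 and Grk2, whose products phosphorylate active receptors, had 200.3 ± 17.3 and 325 ± 70.4 CPM, and 405 ± 72.5 and 623 ± 157 CPM. Within the matrix-rich libraries the fold change of Gpsm1 was -0.76, that of Grk6 -0.28 and that of Grk2 -0.27.

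Chemokine receptor genes had fold changes of both signs. Of 18 genes 12 were tested, and 1 rose over all genes by edgeR (6 at an unadjusted p under 0.05, 3 in each direction, and 3 higher and 2 lower by DESeq2). That gene was Cxcr6, the receptor for CXCL16 and a marker of residency, at 5.84, 3.54 and 7.25 CPM in the NK libraries and at 62.9, 62.3 and 92.0 CPM in the ILC1 libraries (log2 fold change 3.70 ± 0.34, edgeR adjusted p = 0.0447). Cxcr4, the receptor for CXCL12 whose signal RGS1 and RGS16 can dampen, was at 542, 569 and 529.85 CPM in the NK libraries and at 181, 140.4 and 308 CPM in the ILC1 libraries. Every ILC1 library was below every NK library (-1.38 ± 0.30, edgeR adjusted p = 0.150, DESeq2 adjusted p = 0.00073), also within the matrix-rich libraries (-1.72). Cxcr3, the receptor for interferon-induced chemokines, had 38.6 ± 7.33 CPM (ILC1) and 89.2 ± 25.4 CPM (NK), and Ccr8 14.7 ± 2.95 and 0.927 ± 0.329 CPM (edgeR adjusted p = 0.144 and 0.0600).

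The summed level of the 18 chemokine receptor genes was 2303, 2276 and 1801 CPM in NK replicates 1 to 3 and 1186, 1046 and 2461 CPM in ILC1 replicates 1 to 3. ILC1 replicate 3 was the highest of the 6, and in that library Ccr1 was at 339.5 CPM against 3.85 to 16.9 CPM in the others. The ratio of Rgs1 CPM to Cxcr4 CPM, computed after the values were seen, was 2.66, 2.21 and 3.62 in the NK libraries and 13.3, 16.5 and 6.60 in the ILC1 libraries. The same ratio for Rgs2 was 0.891, 0.703 and 0.889 against 3.80, 4.65 and 2.57. That neither ratio overlapped between the cell types follows from its 2 genes and adds nothing to them.

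Receptors for lipid and nucleoside cues of tissue exit and positioning also had fold changes of both signs. Of 17 genes on the list 15 were tested, 1 rose over all genes (9 with unadjusted p below 0.05, of which 3 were higher and 6 lower, and 2 higher and 5 lower by DESeq2). Gpr183, the receptor for oxysterols, had 82.0 ± 10.4 CPM (ILC1) and 25.2 ± 1.35 CPM (NK) (edgeR adjusted p = 0.0381). Within the matrix-rich libraries, which hold 1 NK library, its log2 fold change was 1.71 and that of Cxcr6 3.11. Neither gene passed edgeR's test when NK replicate 1 or 2 or ILC1 replicate 1 or 2 was left out, where 0 genes passed. The sphingosine 1-phosphate receptor S1pr5 is used by NK cells to leave tissue. Its level was 50.7, 53.0 and 17.9 CPM in the NK libraries and 1.73, 1.22 and 0.348 CPM in the ILC1 libraries. The log2 fold change was -5.20 ± 0.76 (edgeR adjusted p = 0.103), and within the matrix-rich libraries -3.61. S1pr1, also named with its values in view, had 6.69 ± 3.48 and 35.8 ± 6.55 CPM. The lysophosphatidylserine receptor gene Gpr34 had 35.2 ± 3.02 and 8.90 ± 2.61 CPM and the adenosine receptor gene Adora2a 68.9 ± 7.70 and 189 ± 60.7 CPM.

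**Figure D5:**
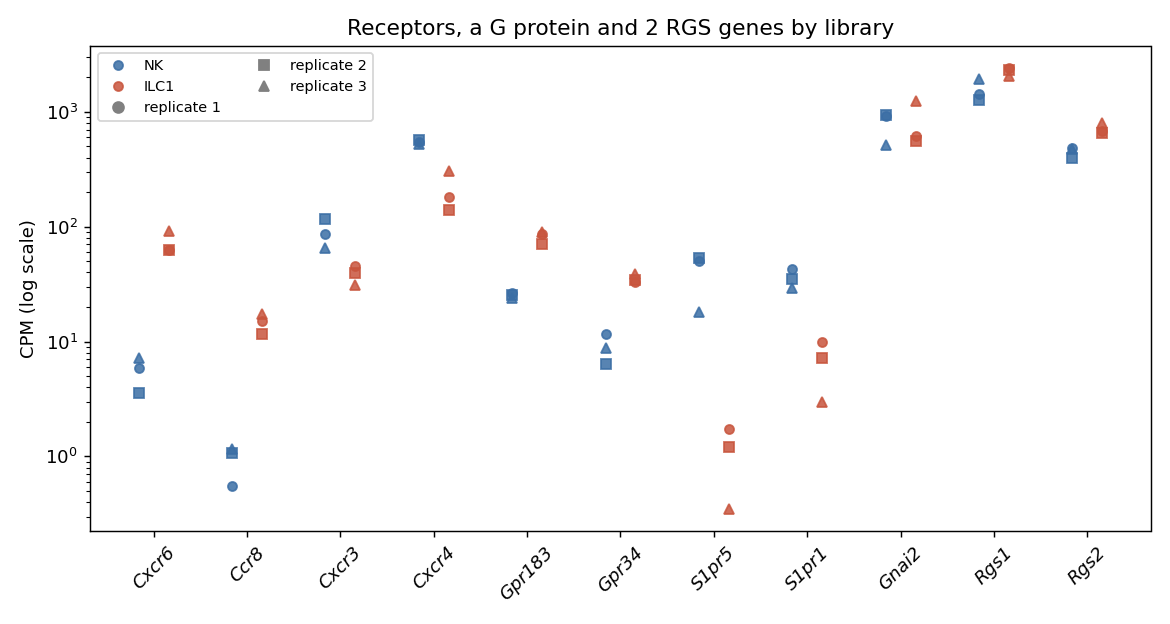
Level in CPM (log axis) in each library of 8 receptor genes, the Gi subunit gene Gnai2, Rgs1 and Rgs2, with blue for NK, red for ILC1 and marker shape for the replicate number. The cell types are apart for the 8 receptors, for Rgs1 and for Rgs2, and they interleave for Gnai2.

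Of 20 genes that carry the signal onward from Gi-coupled receptors, 19 were tested and 0 passed edgeR's test (7 with unadjusted p below 0.05, of which 1 was higher and 6 lower, and 1 higher and 5 lower by DESeq2, with a median of -0.36). Rasgrp2, an activator of the integrin regulator Rap1, had 10.5 ± 1.89 CPM (ILC1) and 44.9 ± 11.7 CPM (NK) (edgeR adjusted p = 0.0830). The genes of the regulatory subunits of PI3K gamma had fold changes of opposite sign. Pik3r5 had 116 ± 13.5 and 249 ± 38.5 CPM (-1.11 ± 0.17), and Pik3r6 had 20.8 ± 14.1 and 2.60 ± 0.444 CPM (3.0 ± 0.54), with edgeR adjusted p = 0.103 and 0.120 (DESeq2 adjusted p = 2.4e-06 and 2.0e-05).

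Of the 12 retention and egress genes on the list, all tested, 2 rose over all genes (Cxcr6 and Gpr183; 9 with unadjusted p below 0.05, of which 5 were higher and 4 lower). By DESeq2, 5 were higher and 3 lower, and 3 passed with limma-voom. The integrin gene Itga1 had 152 ± 24.2 CPM (ILC1) and 45.7 ± 6.71 CPM (NK), and Zfp683, which encodes the residency factor Hobit, 51.5 ± 10.3 and 4.97 ± 2.21 CPM (edgeR adjusted p = 0.0579 and 0.0830). The ratio of the ILC1 mean to the NK mean was between 3.25 and 13.1 for Itga1, Zfp683, Cxcr6, Gpr183 and Itgae, 1.02 for Cd69, and between 0.0271 and 0.714 for Prdm1, Klf2, Ccr7, S1pr1 and S1pr5. The ratios of Rgs1 and Rgs2, 1.46 and 1.57, lay between these. The ratio of Prdm1, 0.714, depends on ILC1 replicate 3. Prdm1 was at 12.9, 10.2 and 61.3 CPM in ILC1 replicates 1 to 3 and at 34.4 to 48.7 CPM in the NK libraries.

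For each member, the 2 named protein-coding genes with the most similar profile were taken from 8694 genes with a mean of at least 10 CPM, by the root mean square difference of centred log2 CPM over the 6 libraries. The nearest to Rgs1 were Foxk2 (0.067) and Cebpg (0.074), and to Rgs2 Stoml1 (0.071) and Smyd5 (0.080). Stoml1 was at 15.1 to 18.3 CPM in the NK libraries and at 24.4 to 26.7 CPM in the ILC1 libraries. The nearest to Rgs16 were Fignl1 (0.109) and Pfkm (0.1248), and to Rgs18 Pdlim7 (0.0899) and Tubb6 (0.111). Zer1 (0.0404) and Irf2bpl (0.0448) were nearest to Rgs3, Trpv2 (0.0652) and Shkbp1 (0.0697) to Rgs14, and Dera (0.0638) and Slc25a11 (0.0787) to Rgs19. Rgs10 had no close match. Its nearest, Prdx5 (0.231) and Msrb1 (0.251), were also highest in ILC1 replicate 3, at 638 and 148 CPM. The likeness is a description only.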

How the data were processed

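RNA was sequenced from 3 NK and 3 ILC1 samples, from poly(A) RNA with random priming and single-end reads on a BGISEQ-500, per the labels' protocols. The authors deposited raw counts per gene symbol. The submitters' processing notes name HISAT2 2.1.0, featureCounts 2.0.1 and GRCm38. Neither an annotation release nor a strand setting is given in the sources used here, so reads of antisense partners may be shared. Without molecular identifiers, counts include PCR copies. From the counts, edgeR 4.0.16 in R 4.3.3 was run with TMM scaling, filterByExpr (14475 genes tested) and a robust quasi-likelihood fit of cell type alone. The SE is the absolute log2 fold change divided by the square root of F. DESeq2 1.42.0 and limma-voom (limma 3.58.1) were alternatives. Positions and lengths come from GENCODE M21. The fit was also run on simulated counts with the same dispersion for every gene and no library sets. That setting is simpler than these data.

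The members and gene lists were chosen with earlier results of these data known. Named genes are all 8 members, other Rgs genes with at least 1 CPM in some library, and of each other list those that passed plus up to 3 with the smallest p. Alternatives were RLE and upper-quartile scaling, no low-count filter, a mean of at least 5 CPM, blocking on replicate number, leaving out each library, the library sets as a term, and a prior count of 2. Library totals were 16931099 to 20224847 counts, and 1 count equals 0.0480 to 0.0580 CPM.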

Additional observations from a re-analysis of the deposited data

How the results depend on the processing

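Over all genes, 12 passed in the fit with 6 libraries, 138 with no low-count filter, 33 with the library sets as a term, 1010 by DESeq2, and from 0 to 449 with 1 library left out. It was 449 without NK replicate 3, 22 without ILC1 replicate 3 and 0 without any of the other 4. Of the 8 RGS genes, 2 passed by DESeq2 (Rgs1 and Rgs2) and 0 under each other alternative, among them every library left out. Of 120 fold changes of the 8 genes under the alternatives, 3 changed sign. Rgs10 was at -0.19 without ILC1 replicate 3, and over the libraries left out it ranged from -0.19 to 2.06. Rgs19 was at 0.019 without NK replicate 1 and at 0.00039 without ILC1 replicate 1, with a range from -0.55 to 0.019. The cause of these differences was not tested. The labels do not tie replicate numbers to a shared mouse or day, and the main fit did not pair the libraries. Same-numbered libraries deviated in opposite directions from their group means (r = -0.363, -0.355 and -0.564). These values also hold the differences in fibroblast and macrophage markers between libraries, so they do not decide whether the numbers pair the libraries. With a replicate block 0 genes and 0 of the 8 members passed (1584 genes and 2 members at an unadjusted p under 0.05). All 16 most similar genes were found again with a prior count of 0.5. Depth limits mainly the low members: Rgs18 rested on 80 to 258 counts per library.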
